A study of Mus musculus with 4 samples.

Results

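The nuclear genes of the mitochondrial respiratory chain were examined in mouse back skin. They were taken by symbol, as every gene whose symbol starts with Ndufa, Ndufb, Ndufc, Ndufs, Ndufv, Uqcr, Cox4 to Cox8 or Atp5 and that had 10 or more counts in at least 1 library. Of the 20611 genes in the tables, 88 matched and 86 were kept. The 2 genes left out, Cox8c and Cox7b2, encode testis forms of cytochrome c oxidase subunits and had 0 counts in all 4 libraries, which allows a level of up to 0.107 to 0.146 CPM (3 counts). The 86 genes comprised 36 subunits and 7 assembly factors of complex I, 8 subunits of complex III, 12 common subunits of complex IV, 15 subunits of complex V, 3 striated muscle forms of complex IV subunits (Cox6a2, Cox7a1, Cox8b), 2 forms known from hypoxic or vascular cells (Cox4i2, Ndufa4l2) and 1 testis form (Cox6b2). Another 2, Atp5s and Atp5sl, carry the Atp5 name without being subunits of the enzyme. Cox7a2l stands among the 12 common genes of complex IV by its symbol alone, whether or not it is a subunit. All 86 also passed the filter on low counts, which left 15068 genes in the tests.

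All animals were male BALB/c mice of 8 to 9 weeks whose back skin received 5% imiquimod (IMQ) cream, 47 mg a day, on days 1 to 5, and was collected on day 6. Imiquimod activates Toll-like receptor 7 and gives a psoriasis-like dermatitis in mice. One group had the cream alone (IMQ, 1 library), one had a lotion without compound about 1 h after the cream (IMQ+VEH, 2 libraries) and one had the lotion with IDMF, isosorbide di-(methyl fumarate), an ester of methyl fumarate (IMQ+IDMF, 1 library). Every group therefore carries the imiquimod, and skin without it was not analysed here. The series describes the libraries as independent biological replicates, but only IMQ+VEH was repeated, so that pair supplied the spread for every test and the single libraries were assumed to vary like it.

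The respiratory chain passes electrons from NADH through complex I, and from succinate through complex II, to ubiquinone, then through complex III and cytochrome c to complex IV, which reduces oxygen. Complexes I, III and IV pump protons across the inner mitochondrial membrane, and complex V, the ATP synthase, uses the returning protons to make ATP. Several small subunits of complex IV exist in alternative forms, among them forms typical of heart and skeletal muscle. Mouse back skin is made of epidermis, dermis and fat over a thin sheet of skeletal muscle, the panniculus carnosus.

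Libraries held between 21167149 and 26639628 counts, and the 86 genes together took 1.22% of counts in IMQ, 1.44% and 1.49% in IMQ+VEH replicates 1 and 2, and 1.54% in IMQ+IDMF. The 95% Clopper-Pearson intervals of these shares, 1.21 to 1.22%, 1.43 to 1.44%, 1.48 to 1.49% and 1.53 to 1.55%, cover counting error only. IMQ thus had the lowest share of counts and IMQ+IDMF the highest. The deposited FPKM is a level per transcript length and library size, and is not always a rescaling of the counts. Summed over the 86 genes it was 17900 in IMQ, 20800 and 22500 in IMQ+VEH replicates 1 and 2, and 22200 in IMQ+IDMF. On that scale IMQ+VEH replicate 2 was the highest. Skeletal muscle markers were detected in every library, 16 of 16 above 0. Their summed level was 10100 FPKM in IMQ, 20800 and 15100 in IMQ+VEH and 18800 in IMQ+IDMF. White adipocyte markers, 10 of 10 above 0 in every library, summed to 934, 4330, 2850 and 3090 FPKM in the same order, and 4 of the 10 were called higher in IMQ+VEH than in IMQ. Hair follicle markers went the other way, with 3 of 9 tested called lower in IMQ+VEH. In RNA from whole skin, more cells of a type and more RNA per cell cannot be told apart.

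Per transcript length, the small subunits of complexes III, IV and V were among the most abundant messages of the skin. Of the 86 genes, 15 were among the 200 genes with the highest mean FPKM over the 4 libraries, 51 among the highest 500 and 71 among the highest 1000. Ndufa4, once assigned to complex I and now counted as a subunit of complex IV, was the highest and ranked 64 among all genes, at 1390 FPKM in IMQ, 1290 and 1630 in IMQ+VEH and 1350 in IMQ+IDMF. Its groups overlapped, with IMQ between the IMQ+VEH replicates. Atp5k, the small e subunit in the membrane part of the ATP synthase, followed within complex V at 839 FPKM in IMQ, 845 and 1040 in IMQ+VEH and 1080 in IMQ+IDMF. Median levels were close for complex V (414 FPKM), complex III (408 FPKM) and the common forms of complex IV (401 FPKM), and lower for complex I subunits (130 FPKM). The assembly factors of complex I, which help to build the enzyme without staying in it, had a median of 6.15 FPKM, from 3.76 for Ndufaf5 to 14.1 for Ndufaf2. These class levels are over all 4 libraries and were not tested against each other.

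**Figure D1:**
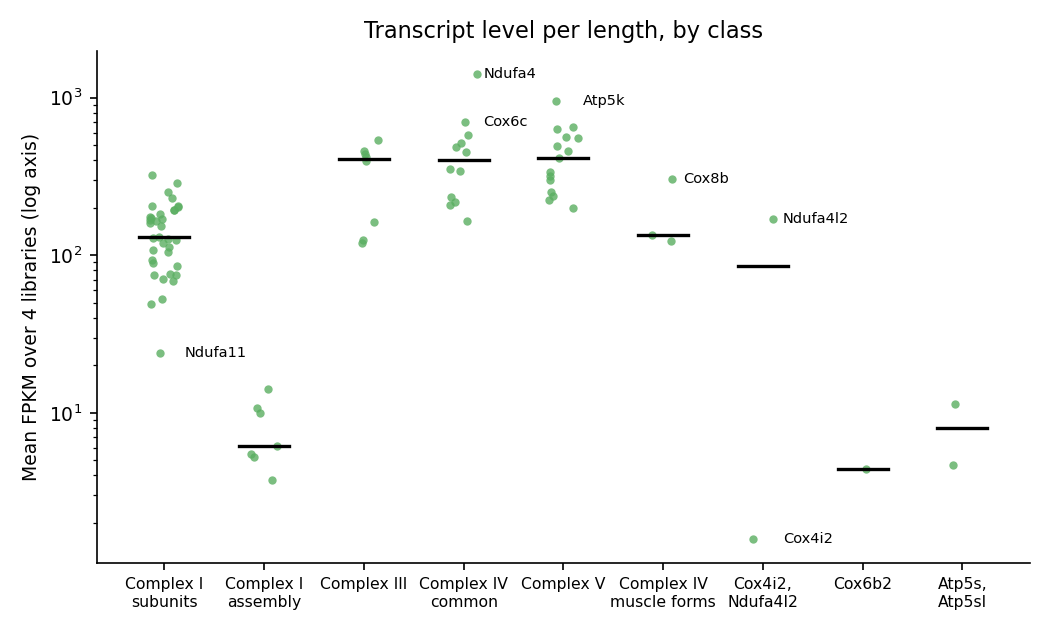
Mean FPKM of each gene over the 4 libraries on a log axis, by complex, with the black bar at the class median. Complexes III, IV and V have medians of 401 to 414 FPKM, complex I subunits 130 FPKM and complex I assembly factors 6.15 FPKM.

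The first comparison asks what the lotion itself adds to imiquimod-treated skin. None of the 86 genes was called in IMQ+VEH against IMQ, where edgeR's quasi-likelihood test called 100 of 15068 genes (0.664%), 51 higher and 49 lower. DESeq2 called none of the 86 either, and at an unadjusted p under 0.05 the edgeR count was 2 of 86, Cox7a1 and Cox8b, against 1327 of all genes (8.81%). The order of the libraries was nevertheless uneven among these genes. In log2 CPM, counts scaled to library size by TMM on the log2 scale, both IMQ+VEH libraries lay above IMQ for 63 of the 86, against 33.5% of all genes tested, and below it for 1 of 86, Atp5s, against 35.0%. The same 63 had IMQ below the 3 other libraries, against 28.9% of all genes, and Atp5s alone had IMQ above all 3, against 30.1%. Among the 4800 genes with a mean count of 1000 or more, a level most of these genes reach, IMQ was lowest for 24.0% and highest for 38.0%. For the other 22 genes IMQ lay between the others.

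The differences behind that order were small and about the size of the difference between the IMQ+VEH replicates. The median difference from IMQ over the 86 genes was 0.10 on the log2 scale for IMQ+VEH replicate 1, 0.30 for replicate 2 and 0.27 for IMQ+IDMF, while the medians over all genes tested were -0.02, 0.00 and 0.00. Replicate 2 exceeded replicate 1 by a median of 0.19. That median was -0.03 over all genes tested and 0.12 over the genes with a mean count of 1000 or more. Replicate 2 was the higher of the pair for 74 of the 86 genes, and the share of all genes with this order was not counted. The median for the mean of the pair over IMQ was 0.18. These 3 differences from IMQ share the single IMQ library, so they are not separate observations of the same order.

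**Figure D2:**
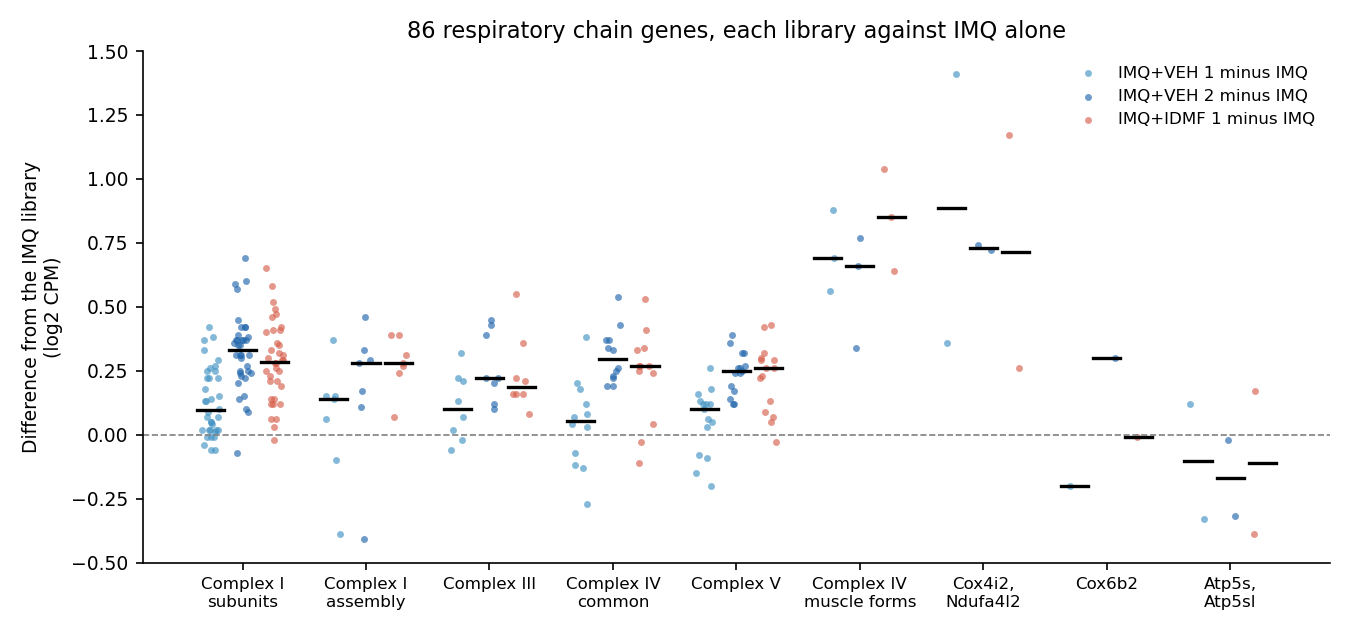
Difference of each library from the IMQ library in log2 CPM for the 86 genes, by class, with one point for each gene and the black bar at the class median. Complex I to V medians lie between 0.06 and 0.33, the 3 muscle forms between 0.66 and 0.85, and every difference uses the same IMQ library.

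Within complex I, IMQ was the lowest library for 29 of the 36 subunits, among them 6 of the 7 nuclear core subunits, which belong to the catalytic part of the enzyme. The 7 exceptions were Ndufs1, Ndufs5, Ndufa2, Ndufa5, Ndufb2, Ndufb4 and Ndufb10. The median difference of the IMQ+VEH mean from IMQ was 0.22 for core subunits and 0.19 for the 29 accessory subunits. Ndufs7, which holds the last cluster before ubiquinone, had 1937 counts in IMQ, 2555 and 2365 in IMQ+VEH and 2677 in IMQ+IDMF, or 6.26, 6.51, 6.85 and 6.90 log2 CPM. IMQ was lowest and IMQ+IDMF highest, and the fitted log2 fold change of IMQ+VEH over IMQ was 0.44 (SE 0.28, adjusted p = 0.785). Ndufs1, the largest core subunit, was the exception among the core genes, at 7.34 log2 CPM in IMQ, 7.56 and 7.27 in IMQ+VEH and 7.46 in IMQ+IDMF. Its IMQ+VEH replicates lay on either side of IMQ.

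Other core subunits also had IMQ lowest. Ndufv1, which binds NADH, had 7.11 log2 CPM in IMQ, 7.29 and 7.48 in IMQ+VEH and 7.52 in IMQ+IDMF. Ndufs8, a subunit with 2 iron-sulfur clusters, had 6.00, 6.03, 6.42 and 6.48 log2 CPM in the same order of libraries. Replicate 1 of IMQ+VEH lay close to IMQ for Ndufs8, and replicate 2 lay close to IMQ+IDMF. Ndufs3 and Ndufv2 had fitted log2 fold changes of 0.30 and 0.13 for IMQ+VEH over IMQ, each with an SE of 0.28.

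Among accessory subunits of complex I, Ndufa13 had the largest fitted difference that separated the groups. Ndufa13, also known as GRIM-19, had 54.1 FPKM in IMQ, 78.5 and 89.7 in IMQ+VEH and 75.6 in IMQ+IDMF, and a log2 fold change of 0.54 for IMQ+VEH over IMQ (SE 0.28, adjusted p = 0.655). Its exons overlap those of Tssk6 on the opposite strand. Ndufa12 came next with 127 FPKM in IMQ, 189 and 194 in IMQ+VEH and 186 in IMQ+IDMF, a log2 fold change of 0.50 (SE 0.27, adjusted p = 0.676). For both genes the IMQ library stood below the 3 others. Ndufb9 and Ndufa3, the complex I subunits with the highest mean level, had 269 and 231 FPKM in IMQ, 311 and 287 in IMQ+VEH replicate 1 and 354 and 307 in replicate 2. In log2 CPM, Ndufb9 differed from IMQ by 0.05 in replicate 1 and 0.35 in replicate 2. Of the 7 assembly factors, 4 had IMQ lowest. Ndufaf1, an early assembly factor, had 3.78 log2 CPM in IMQ, 4.16 and 4.24 in IMQ+VEH and 4.17 in IMQ+IDMF, while Ndufaf4 had 4.61, 4.22, 4.72 and 4.89 with its IMQ+VEH replicates on either side of IMQ.

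In complex III, IMQ was lowest for 6 of 8 subunits. Uqcrc1, a core subunit, had the widest gap in the class, with 122 FPKM in IMQ, 171 and 172 in IMQ+VEH and 188 in IMQ+IDMF. The IMQ+VEH replicates were close to each other, and the log2 fold change was 0.39 (SE 0.34, adjusted p = 0.903). Its partner Uqcrc2 differed less, at 110, 143, 121 and 122 FPKM in the same order. Uqcrfs1, the Rieske iron-sulfur protein, had 7.35 log2 CPM in IMQ and 7.55 to 7.57 in the other libraries. The small subunits Uqcrq and Uqcrh had 381 and 485 FPKM in IMQ, and in IMQ+VEH 467 and 525 FPKM for Uqcrq and 520 and 575 FPKM for Uqcrh. In log2 CPM, which unlike the FPKM carries the TMM scaling, IMQ+VEH replicate 1 differed from IMQ by -0.06 for Uqcrh.

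In complex V, IMQ was lowest for 11 of 15 subunits. Atp5b, the catalytic beta subunit, had the most counts of the 86 genes, 27126 in IMQ, 35814 and 27415 in IMQ+VEH and 32290 in IMQ+IDMF. Scaled to library size these were 10.06, 10.32, 10.39 and 10.50 log2 CPM, with IMQ lowest, and a log2 fold change of 0.29 (SE 0.49, adjusted p = 0.985). The c subunit of the rotor ring is encoded by 3 genes with the same mature protein, and their mean levels were 636 FPKM for Atp5g3, 337 for Atp5g2 and 225 for Atp5g1. Atp5g3 separated the groups, at 8.58 log2 CPM in IMQ, 8.76 and 8.97 in IMQ+VEH and 8.91 in IMQ+IDMF. Atp5g2 did not, since IMQ+VEH replicate 1 differed from IMQ by -0.09 and replicate 2 by 0.25. Atp5k, Atp5l and Atp5h were the other complex V genes for which replicate 1 lay below IMQ. Median differences of the IMQ+VEH mean from IMQ lay in a narrow range over the classes, 0.20 for complex I subunits, 0.16 for its assembly factors, 0.18 for complex III and 0.14 each for complex V and the common forms of complex IV.

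Among the common forms of complex IV, IMQ was lowest for 8 of 12. Cox5b, a zinc-binding subunit, had 263 FPKM in IMQ, 383 and 364 in IMQ+VEH and 396 in IMQ+IDMF, with a log2 fold change of 0.40 (SE 0.30, adjusted p = 0.854). Cox4i1, the largest nuclear-encoded subunit, had 349, 439, 527 and 489 FPKM in the same order and a log2 fold change of 0.37 (SE 0.35, adjusted p = 0.919). Both had IMQ lowest. The 4 exceptions were Ndufa4, Cox7b, Cox7c and Cox7a2l, and in each IMQ+VEH replicate 1 lay below IMQ and replicate 2 above it.

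The striated muscle forms of complex IV stood farthest from IMQ among the classes with 3 or more genes. Their median difference from IMQ was 0.69 for IMQ+VEH replicate 1, 0.66 for replicate 2 and 0.85 for IMQ+IDMF, and in all 3 genes IMQ was the lowest library. Cox7a1, a form found in heart, skeletal muscle and brown fat, had 461 counts in IMQ, 941 and 635 in IMQ+VEH and 633 in IMQ+IDMF, or 76.3, 158, 134 and 124 FPKM. Its log2 fold change of IMQ+VEH over IMQ was 0.83 (SE 0.30), with an unadjusted p of 0.0181 that did not pass after adjustment over all genes (adjusted p = 0.394). Cox8b, with the same tissue range, had 1162 counts in IMQ, 1891 and 1485 in IMQ+VEH and 1848 in IMQ+IDMF, or 196, 322, 319 and 370 FPKM, and a log2 fold change of 0.61 (SE 0.27, unadjusted p = 0.0403, adjusted p = 0.522). Cox6a2, the heart and skeletal muscle form of subunit 6a, had 1445, 2582, 1477 and 2624 counts, or 86.3, 156, 112 and 186 FPKM, and a log2 fold change of 0.53 (SE 0.28, adjusted p = 0.666). For Cox6a2 the replicates of IMQ+VEH differed by 0.35 on the log2 scale, with replicate 2 the closer to IMQ.

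Each muscle form has a common partner that takes its place in most tissues, and the promoters of both kinds can be set side by side. The 250 bases before the start of Cox7a1 and Cox8b and of the common genes Cox7a2, Cox8a and Cox6a1 are shown. The reason is that the muscle forms stood farthest from IMQ among the classes with 3 or more genes. Cox6a1 is the common partner of Cox6a2. They are RefSeq sequences of GRCm38.p6, written 5′ to 3′ on the gene's strand, with capitals for matches to any of the motifs named after them.
Cox7a1: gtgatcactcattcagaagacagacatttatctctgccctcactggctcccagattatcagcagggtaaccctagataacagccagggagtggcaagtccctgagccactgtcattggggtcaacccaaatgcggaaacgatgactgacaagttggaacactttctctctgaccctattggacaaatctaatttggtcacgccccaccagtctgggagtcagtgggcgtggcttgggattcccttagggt
Cox7a2: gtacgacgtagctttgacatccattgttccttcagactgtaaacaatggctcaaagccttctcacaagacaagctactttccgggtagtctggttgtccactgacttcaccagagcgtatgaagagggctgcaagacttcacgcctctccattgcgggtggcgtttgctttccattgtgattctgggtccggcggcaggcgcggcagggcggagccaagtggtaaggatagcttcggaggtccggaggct
Cox8b: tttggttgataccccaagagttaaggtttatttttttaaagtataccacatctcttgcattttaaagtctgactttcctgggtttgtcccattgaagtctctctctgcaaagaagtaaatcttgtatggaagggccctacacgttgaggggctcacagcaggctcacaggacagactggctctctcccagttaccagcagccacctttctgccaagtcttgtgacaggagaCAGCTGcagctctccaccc
Cox8a: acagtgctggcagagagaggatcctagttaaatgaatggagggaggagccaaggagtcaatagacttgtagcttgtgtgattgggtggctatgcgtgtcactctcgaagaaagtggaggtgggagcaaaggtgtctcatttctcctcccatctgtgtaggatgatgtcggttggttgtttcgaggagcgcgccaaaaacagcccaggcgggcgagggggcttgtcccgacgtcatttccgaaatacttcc
Cox6a1: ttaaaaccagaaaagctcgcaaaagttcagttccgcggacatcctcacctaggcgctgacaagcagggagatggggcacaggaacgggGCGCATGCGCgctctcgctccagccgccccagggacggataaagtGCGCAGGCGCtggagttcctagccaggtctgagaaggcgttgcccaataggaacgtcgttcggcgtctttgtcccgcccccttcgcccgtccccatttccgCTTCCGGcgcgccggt
The windows lie at chr7:30183921-30184170 on the plus strand for Cox7a1 and, on the minus strand, at chr9:79759854-79760103 for Cox7a2, chr7:140900447-140900696 for Cox8b, chr19:7217617-7217866 for Cox8a and chr5:115348959-115349208 for Cox6a1. Cox6a1 held 2 matches to the NRF1 motif GCGCANGCGC and 1 to the ETS motif CCGGAAG, which GABP, also called NRF2, can bind. Cox8b held 1 match to the E-box CAGCTG, from 19 to 14 bases before the start. The windows of Cox7a1, Cox7a2 and Cox8a held none of the motifs searched, which were these 3, the ERR half-site AAGGTCA, the TATAAA box (given strand only) and the MEF2 motif, otherwise on both strands.

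Promoter entries existed for 72 of the 86 genes, 78 entries in all. NRF1 matches stood in 13 of the 78 (16.7%), against 3.74% of all 32851 promoter entries, and ETS matches in 12 (15.4%), against 6.91%. By class, NRF1 matches were in 7 of 34 entries for complex I subunits, 4 of 17 for complex V, 1 of 10 for the common forms of complex IV and 0 of 5 for complex III. The E-box was in 6 of the 78 (7.69%), against 13% of all entries, the ERR half-site in 5 (6.41%) against 4.08%, the TATAAA box in 2 (2.56%) against 7.59%, and MEF2 in none, against 1.69%. A match describes the letters and is not a measured binding site.

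The share of a muscle form in its pair depended on the scale, and was larger per length than by counts for Cox7a1 and Cox8b. Cox7a1 was 29.6% of the summed FPKM of Cox7a1 and Cox7a2 in IMQ, 43.0% and 37.4% in IMQ+VEH and 35.7% in IMQ+IDMF. By counts it was 11.2%, 18.4%, 15.2% and 14.3%. Cox8b was 31.7% of its pair with Cox8a in IMQ, 39.3% and 39.1% in IMQ+VEH and 40.9% in IMQ+IDMF, or 18.0%, 23.4%, 23.2% and 24.6% by counts. Both shares were lowest in IMQ on either scale. Cox6a2 was 16.7% of its pair with Cox6a1 in IMQ, 23.5% and 16.7% in IMQ+VEH and 24.7% in IMQ+IDMF, so that IMQ+VEH replicate 2 could not be told from IMQ by this share, nor by counts (21.7% and 21.6%). The common partners differed less between libraries, from 181 to 224 FPKM for Cox7a2, 422 to 534 for Cox8a and 431 to 566 for Cox6a1.

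**Figure D3:**
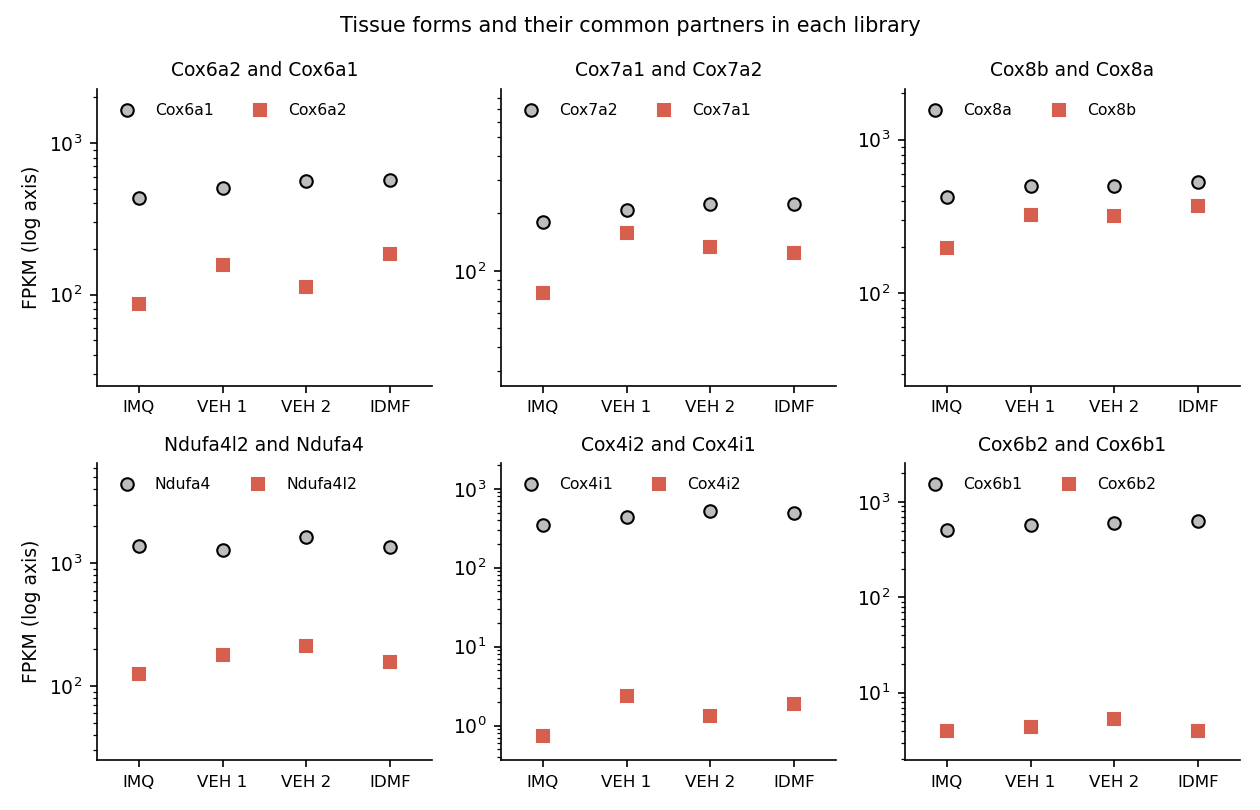
FPKM on a log axis of 6 tissue forms (squares) and their common partners (circles) in the IMQ, IMQ+VEH 1, IMQ+VEH 2 and IMQ+IDMF libraries. The muscle forms Cox6a2, Cox7a1 and Cox8b are lowest in IMQ, while their partners differ less between libraries.

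Skeletal muscle markers shared the order of the muscle forms only in part. The 16 markers had a median difference from IMQ of 0.81 in IMQ+VEH replicate 1, 0.33 in replicate 2 and 0.73 in IMQ+IDMF, and 15 of 16 had IMQ lowest, with none called. Acta1, the skeletal muscle actin, had 1450 FPKM in IMQ, 3920 and 2780 in IMQ+VEH and 3410 in IMQ+IDMF. Ckm, muscle creatine kinase, had 1130, 1950, 1500 and 1960 FPKM. Within the IMQ+VEH pair, replicate 2 was below replicate 1 by a median of 0.45 for the muscle markers and 0.64 for the white adipocyte markers, and above it by 0.20 for the 71 common subunits of complexes I, III, IV and V. The muscle forms lay between, 0.11 lower in replicate 2. By their medians, the common subunits and the muscle markers thus went opposite ways between replicates of one treatment. Single muscle markers ranged from -0.91 for Myh2 to 0.47 for Mb. Over all genes, this contrast had a median of 0.17 in the shortest of 5 bins of transcript length and -0.25 in the longest. The part of length in these medians was not tested. Differentiated keratinocyte markers were 0.51 higher in replicate 2 and sebaceous gland markers 0.57 higher. The keratinocyte markers differed from IMQ by medians of -0.54 and -0.01 in the IMQ+VEH replicates and -0.38 in IMQ+IDMF. For the sebaceous gland markers these were 1.04, 1.57 and 1.28. The part of cell makeup in the values of the respiratory chain genes was not tested.

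**Figure D4:**
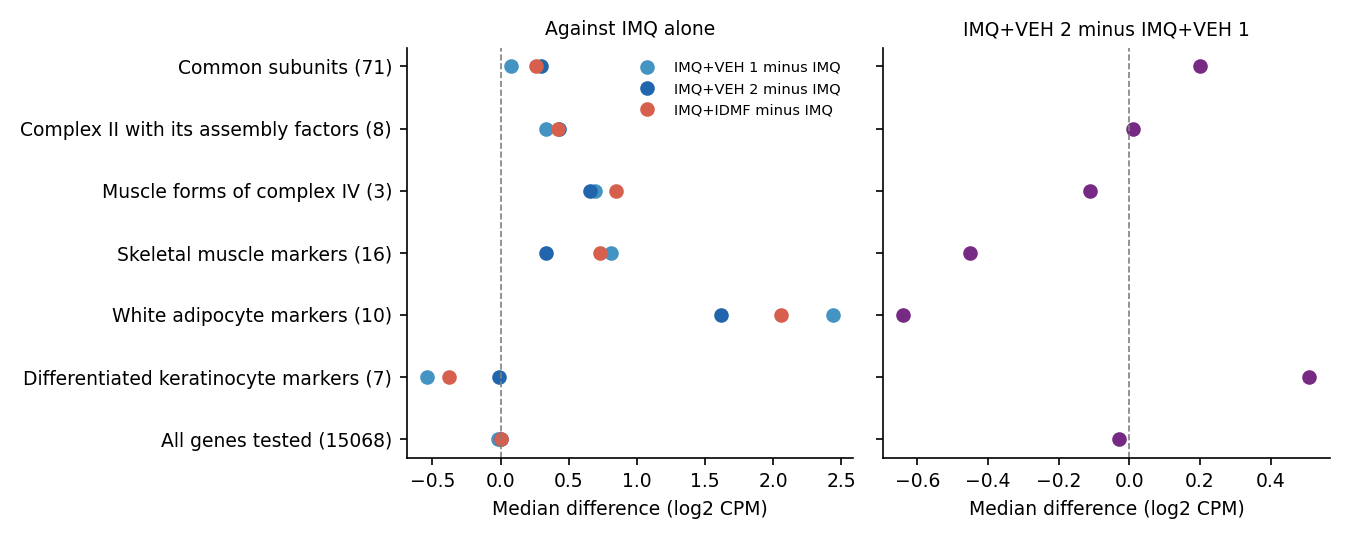
Median difference in log2 CPM of gene classes and marker lists, against IMQ alone (left) and between the IMQ+VEH replicates (right), with the number of genes in brackets. The common subunits are 0.20 higher in replicate 2 of IMQ+VEH, where skeletal muscle markers are 0.45 lower.

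Cox4i2 and Ndufa4l2, forms known from vascular or hypoxic cells, also had IMQ lowest. Ndufa4l2, a relative of Ndufa4 that is induced in hypoxia, had 126 FPKM in IMQ, 181 and 214 in IMQ+VEH and 158 in IMQ+IDMF. Its log2 fold change was 0.55 for IMQ+VEH over IMQ (SE 0.31, adjusted p = 0.700) and -0.29 for IMQ+IDMF over IMQ+VEH (SE 0.31, adjusted p = 1). It made up 8.28% of its pair with Ndufa4 in IMQ, 12.3% and 11.6% in IMQ+VEH and 10.5% in IMQ+IDMF. Cox4i2, the alternative form of Cox4i1, had only 14 counts in IMQ, 45 and 20 in IMQ+VEH and 30 in IMQ+IDMF. That was 0.208% to 0.535% of its pair per length, and its log2 fold change of 1.23 had an SE of 0.93 (adjusted p = 0.871). The endothelium markers, 6 of 6 above 0 in every library, summed to 18.4, 45.5, 19.8 and 29.8 FPKM. The sums had the same order of libraries as the Cox4i2 counts. In log2 CPM IMQ was lowest for 4 of the 6, against 28.9% of all genes tested. Tek and Vwf differed from IMQ by -0.34 and -0.44 in IMQ+VEH replicate 2. The part of these markers in the Cox4i2 values was not tested. Cox6b2, a testis form, had 43 to 49 counts in each library and 0.614% to 0.872% of its pair with Cox6b1.

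The second comparison asks what IDMF adds to the lotion. None of the 86 genes was called in IMQ+IDMF against IMQ+VEH, where edgeR's test called 0.0% of the 15068 genes, none of the 86 had an unadjusted p under 0.05 against 306 of all genes, and DESeq2 called none. IMQ+IDMF lay above both IMQ+VEH libraries for 32 of the 86 genes, against 27.7% of all genes tested, and below both for 8 of 86, against 27.5%. The count below both was 14 with scaling to total counts, against 26% of all genes, and 24 in log2(FPKM + 1), against 31.6%. On the FPKM scale the count below both was thus near the share of all genes. The count above both was 47 with total counts, against 29.0% of all genes, and 34 in log2(FPKM + 1), against 23.4%. The median difference was 0.16 against IMQ+VEH replicate 1, -0.02 against replicate 2 and 0.08 against their mean. It lay above replicate 1 for 73 of the 86, against 49.5% of all genes, and above replicate 2 for 37, against 50.5%. The direction therefore depended on the replicate, and the difference was smaller than that between the replicates. By class the medians against the mean were 0.06 for complex I subunits, 0.15 for its assembly factors, 0.05 for complex III, 0.07 for the common forms of complex IV and 0.10 for complex V.

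Single genes were spread on both sides. Cox6a2 had the highest fitted log2 fold change of IMQ+IDMF over IMQ+VEH, 0.52 (SE 0.27, unadjusted p = 0.0793, adjusted p = 1), with 186 FPKM against 156 and 112. The other muscle forms did not share its size, since Cox7a1 had -0.19 (SE 0.29) and Cox8b 0.24 (SE 0.26). Ndufaf4, an assembly factor of complex I, had 0.39 (SE 0.32), and Ndufaf3 0.23 (SE 0.36). Among subunits, Ndufa8 had 0.27 (SE 0.26), Ndufs8 0.24 (SE 0.27), Atp5k 0.22 (SE 0.29) and Uqcrc1 0.17 (SE 0.33). On the lower side, Ndufs5 had -0.35 (SE 0.65), Ndufab1, the mitochondrial acyl carrier protein, -0.09 (SE 0.26), and Uqcrc2 -0.08 (SE 0.33). Each of these lay within 2 SE of 0.

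None of the other genes of the pathway listed was called either, but complex II had a wider gap to IMQ. Complex II is wholly nuclear-encoded and also part of the citric acid cycle. Its 4 subunits had a median of 0.44 for the IMQ+VEH mean over IMQ and 0.04 for IMQ+IDMF over IMQ+VEH, and its 4 assembly factors 0.32 and 0.03. Sdha, its flavoprotein, had 49.6 FPKM in IMQ, 84.2 and 61 in IMQ+VEH and 71.3 in IMQ+IDMF, and Sdhb, its iron-sulfur protein, had 81.9, 127, 113 and 135 FPKM. IMQ was lowest for both. Replicate 2 differed from replicate 1 of IMQ+VEH by a median of -0.08 over the subunits and 0.26 over the assembly factors. Cycs, cytochrome c, and Cyc1, the cytochrome of complex III, had log2 fold changes of 0.26 (SE 0.32) and 0.18 (SE 0.32) for IMQ+VEH over IMQ.

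None of the assembly factors of complex III (6 tested), complex IV (21) and complex V (5), or the 7 complex I factors outside the symbol rule, was called in either comparison, with medians of 0.24, 0.16, 0.19 and 0.18 for IMQ+VEH over IMQ. The 15 regulators of mitochondrial gene expression had none called and a median of -0.01. Ppargc1a, the coactivator PGC-1alpha, had 91 counts in IMQ, 211 and 97 in IMQ+VEH and 187 in IMQ+IDMF. In log2 CPM it differed from IMQ by 1.05 and 0.39 in the IMQ+VEH replicates and 1.20 in IMQ+IDMF, with a log2 fold change of 0.78 (SE 0.51, adjusted p = 0.803). Nrf1, the factor named for its sites in these promoters, had 713, 558, 450 and 527 counts and a log2 fold change of -0.43 (SE 0.30), with IMQ the highest library. Esrra had 30.1 to 32.5 FPKM in all 4 libraries, and Tfam had 5.55 to 7.12. Among uncoupling proteins and carriers, 9 tested and none called, Slc25a4, the ADP/ATP carrier of heart and muscle, had 438, 777, 682 and 744 FPKM, while its widespread relative Slc25a5 had 347 to 355 FPKM. Ucp1, the uncoupling protein of brown fat, had at most 1 count in a library. Of the brown or beige adipocyte markers 5 others were tested, with none called. IMQ was lowest for 4 of the 5, against 28.9% of all genes tested, and highest for Dio2. The part of these markers in the Cox7a1 and Cox8b values was not tested. The mitochondrially encoded subunits were not analysed here.

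Short transcripts as a whole differed between the IMQ+VEH replicates. Length here is that of the longest protein-coding transcript annotated for a gene. The 85 genes with an annotated length had a median of 875 bases, against 3069 for genes tested, and 74 of the 85 fell in the shortest of 5 equal bins of length over 14557 genes. That bin had a median of 0.17 for replicate 2 over replicate 1, near the 0.19 of the respiratory chain genes, and the longest bin had -0.25. For the IMQ+VEH mean over IMQ, the shortest bin had 0.07 and the longest -0.10, against 0.18 for the respiratory chain genes. The shorter 43 and the longer 42 of the 85 had the same median there, 0.18. For 15 of the 85, counts and FPKM imply a length under 0.5 of the annotated one, as in Ndufb2 (380 against 4371 bases). This split, the bins and the rho that follows are uncertain for such genes. Across genes, Spearman's rho of length with the replicate difference was -0.28 over 14557 genes and -0.34 over the 85, as a description of genes that share the same libraries.

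**Figure D5:**
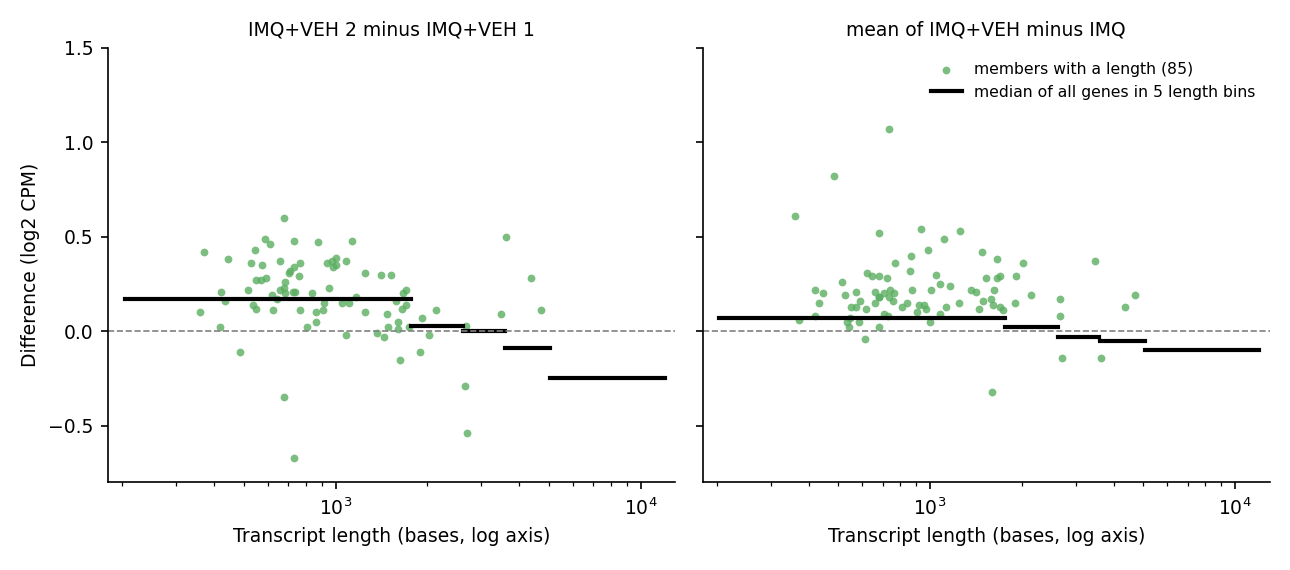
Difference in log2 CPM against transcript length (log axis) for the 85 genes with a length (points), with black bars at the median of all genes in each of 5 bins of length (the last bar is cut at the axis end). Between the IMQ+VEH replicates (left) the shortest bin has a median of 0.17 and the longest -0.25, and for IMQ+VEH over IMQ (right) 0.07 and -0.10.

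For a number of genes the deposited counts and FPKM imply a length far from the annotated one, that of the longest protein-coding transcript. A gene can have shorter transcripts too, so a low ratio alone does not show that counts and FPKM disagree. Of 85 genes with an annotated length, 15 had counts and FPKM that imply a length under 0.5 of it, and 2 had one over 2 times it. Ndufs5 had 61, 67, 75 and 53 counts in IMQ, the IMQ+VEH pair and IMQ+IDMF but 93.2, 95.8, 133 and 93.8 FPKM, which together imply a length of 26 bases where the annotation has 680, so its counts and its fold changes rest on few reads. Ndufb2 had an implied length 0.0869 times its annotated one, and Ndufa11 and Ndufaf5 3.71 and 3 times. The 15 also include Atp5k (0.353 times), Ndufa3 (0.396), Cox7a1 (0.468), Uqcrq (0.275) and Atp5g1 (0.176). The FPKM levels of these genes against other genes, and with them the ranks and shares given above, are uncertain. Exons of 21 of the 86 genes overlap another gene on the opposite strand, among them Cox6a2 with Itgad, Ndufa4l2 with Shmt2 and Cox4i1 with Emc8. No source used here gives the strand setting of the counting, so reads of such neighbours cannot be told apart. Many of these genes also have processed pseudogene copies, and reads shared with those may have been counted or dropped.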

How the data were processed

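RNA from 4 back skin libraries was read in single-end runs of 50 cycles, per the labels' protocols. The authors deposited, per the file headers, a raw count and an FPKM value for each of 20611 gene symbols. The submitters' processing notes name TopHat2, Cufflinks, HTSeq and the build GRCm38 (mm10). No source used here gives the versions, annotation or strand setting.

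Counts were fitted in edgeR 4.0.16 (R 4.3.3) with TMM scaling, filterByExpr (minimum count 10) and 1 mean per group. Quasi-likelihood F tests had 1 residual degree of freedom (24% common coefficient of variation). P-values were Benjamini-Hochberg adjusted over 15068 genes at 0.05. The code was tested on simulated data. DESeq2 1.42.0 was an alternative. Differences between libraries are in log2 CPM (prior count 2). Levels and shares of pairs use FPKM. Positions and lengths (longest protein-coding transcript) come from GENCODE M21 (GRCm38).

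The genes and lists were chosen with earlier results of these data known. Named genes are the tissue forms and their partners, the complex I core, and per class those with the highest level or the largest separated differences. Others named, such as the exceptions to a count, were chosen after their values were seen.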

Additional observations from a re-analysis of the deposited data

How the results depend on the processing

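No paired analysis was possible because only IMQ+VEH has more than 1 library. Depth limits Cox4i2, Cox6b2 and Ndufs5, with 14 to 75 counts in a library. Members called were 0 in both comparisons with DESeq2, its size factors in edgeR, a filter at a mean count of 50 or none at all, the other groupings and without the library outside the comparison. Genes called in IMQ+IDMF against IMQ+VEH went from 0 to 16 without a filter on low counts. In IMQ+VEH against IMQ they went from 100 to 424 without the filter, 202 with DESeq2 and 55 with IMQ+VEH and IMQ+IDMF as 1 group.

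The class medians kept their sign in IMQ+VEH minus IMQ. Without either IMQ+VEH replicate in turn, they ranged from 0.10 to 0.30 for all members, 0.09 to 0.33 for complex I subunits, 0.14 to 0.28 for its assembly factors, 0.10 to 0.22 for complex III, 0.06 to 0.30 for the common forms of complex IV, 0.10 to 0.25 for complex V and 0.66 to 0.69 for the muscle forms. The muscle forms had 0.68 with total counts and 0.71 with log2(FPKM + 1). With both replicates in the main scaling they had 0.61, lower than each of these values. Complex III had 0.28 with log2(FPKM + 1). In IMQ+IDMF minus IMQ+VEH, complex I assembly factors ranged from -0.01 to 0.22 and all members from -0.02 to 0.16 without a replicate.

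Members with IMQ lowest numbered 63 in the main scaling, 77 with total counts and 80 with log2(FPKM + 1), against 34.9% and 37.0% of all genes. They numbered 63 to 77 with 1 other library left out, against 33.5% to 37.6% of all genes. Without IMQ+VEH replicate 1, IMQ+IDMF lay above the remaining replicate for 37 members (50.5% of all genes) and below it for 49 (49.4% of all genes). Without replicate 2, IMQ+IDMF lay above the remaining replicate for 73 members (49.5% of all genes) and below it for 13 (50.4% of all genes). It lay below both for 14 with total counts and 24 with log2(FPKM + 1). With total counts, the log2 fold change of Ndufa12 in IMQ+IDMF against IMQ+VEH became 0.00, and that of Ndufa4 in IMQ+VEH against IMQ became 0.03, from -0.01 and -0.02. The counts of library order and the DESeq2 size factors for medians were added after seeing the data. By raw counts in place of FPKM, the shares of Cox6a2, Cox7a1, Cox8b and Ndufa4l2 moved by more than the spread of the IMQ+VEH pair in every library. Those of Cox6b2 did so in some libraries and those of Cox4i2 in none. The share of Cox7b2 was 0 on both scales.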
